A study of Homo sapiens with 14 samples.

Results

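MLL1-KO1 and MLL1-KO2 are 2 lines made from MDA-MB-231 cells, an established human triple-negative breast cancer (TNBC) line, in which KMT2A, the gene for the histone methyltransferase MLL1, was targeted with CRISPR/Cas9. They were chosen by their labels and account for 4 of the 14 RNA-Seq libraries of the series, with 2 libraries of each line, and they were compared with the 2 libraries of unedited MDA-MB-231 cells, called Parental. All 3 groups were cultured in the same medium without treatment. Each knockout line was selected with puromycin after delivery of its sgRNA and is a mixture of several single KO cells grown out together, whereas the sources used here describe no vector or selection for the Parental cells, so editing, selection, and outgrowth cannot be told apart in any comparison with Parental. In such a mixture, fewer cells with an RNA and less of that RNA per cell cannot be told apart either. The labels do not say whether the 2 libraries of a group came from separate cultures, so p-values measure only the spread between these libraries, which may be technical.

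MLL1 is a catalytic subunit of a COMPASS complex, which methylates lysine 4 of histone H3, a mark of active promoters. Its complexes share a core with the related enzymes of the family and can be joined by the adaptor menin. The protein is best known for keeping HOX genes on during development and for its rearrangement in leukemia. The comparison asks which RNAs differ between the MLL1-KO lines and Parental cells. The question followed here is which functions and gene families moved the same way in both lines.

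Values are transcripts per 1000000 (TPM), which are scaled for gene length, and folds were tested with limma on log2(TPM + 0.5), a scale that understates the change of low genes. A gene was called lower or higher in both lines when it differed from Parental by at least 1.5-fold at a Benjamini-Hochberg adjusted p under 0.05 in each line and in the same direction. Of 13540 genes tested, 1538 were lower in both (11.4%) and 677 were higher in both (5.0%). Genes were tested when they reached 1 TPM in at least 2 of the 14 libraries, and list counts below are over members that passed, of which a low one could pass only through the group where it was high. Both lines were compared with the same Parental libraries, which ties their folds together. The libraries held 18415036 to 21888587 recovered reads. Quantile normalization moved the median log2 fold change of all genes from -0.09 to 0.04 in MLL1-KO1 and from -0.04 to 0.02 in MLL1-KO2, and it turned the split of calls from 69.4% lower to 52.4% lower. Markers of the cell line were present in all 6 libraries, with VIM at 5741 to 8805 TPM, and the estrogen and progesterone receptor genes ESR1 and PGR stayed under 0.2 TPM. The defining markers of T cells and red cells (CD3E and HBB) were at 0 in all 6, and PTPRC, VWF, CDH5, DCN, HBA1, and ALB reached at most 0.413 TPM. CD14, PECAM1, and PDGFRB ranged from 0.679 to 3.25 TPM. ERBB2 was at 25.8 to 42.8 TPM and GATA3 at 8.16 to 12.9 TPM.

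KMT2A (MLL in the table, an older symbol) was 56.7 and 49.0 TPM in Parental, 17.4 and 15.8 for MLL1-KO1, and 25.8 and 27.7 for MLL1-KO2. The knockout libraries were all below Parental, and MLL1-KO1 was below MLL1-KO2. The mean log2 fold change of both lines was -1.30 (SE 0.13, adjusted p = 4.45e-06 from limma). RNA of a gene cut by Cas9 can persist, so its level does not measure the protein, which the authors checked in their knockout lines by immunoblot. KMT2A lies on the distal long arm of chromosome 11, where many genes were low. Of 198 tested genes there beyond 80 Mb, 59 were lower in both lines (29.8%) and 2 were higher, against 11.4% and 5.0% of all genes. Their median log2 fold changes were -0.93 for MLL1-KO1 and -0.37 for MLL1-KO2. After a running median over 51 neighbouring genes was subtracted, the KMT2A value was -0.62 (adjusted p = 0.000909) and KMT2A was no longer called in both lines. Among 26 tested MLL and COMPASS genes, KMT2A alone was lower in both lines, and 1 was higher. Each is 3.85%, against 11.4% and 5.0% of all genes, so such small counts say little about the list. CXXC1, which encodes the CpG-binding subunit of the SET1 complexes, was the only one higher, from 23.4 and 24.2 TPM in Parental to 47.2 and 47.7 for MLL1-KO1 and 46.2 and 48.7 for MLL1-KO2. The core subunit genes WDR5, RBBP5, ASH2L, and DPY30 and the menin gene MEN1 were not called, with mean log2 fold changes of 0.13, -0.03, -0.34, -0.01, and 0.20.

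The largest drops in both lines included genes of secreted and surface proteins. AGR2, a disulfide isomerase of the secretory pathway, was at 161 and 175 TPM in Parental and listed at 0 in all 4 MLL1-KO libraries. The Parental values rest on 1135 and 1202 recovered reads, so that, with 3 reads as the floor of each knockout library, AGR2 was at least 444-fold lower in MLL1-KO1 and at least 383-fold lower in MLL1-KO2. C4BPB, the beta chain of the complement inhibitor C4b-binding protein, fell from 139.7 and 147 TPM in Parental to 0.821 and 0.729 for MLL1-KO1 and 1.11 and 1.28 for MLL1-KO2. TSPAN8, a tetraspanin gene, fell from 38.03 and 40.7 TPM in Parental to 1 read in the MLL1-KO1 libraries together and to 0 in those of MLL1-KO2, at least 103-fold lower in the latter. ALPP, the placental alkaline phosphatase gene, fell from 41.5 and 43.9 TPM in Parental to 0.428 and 0.565 for MLL1-KO1 and 0.0515 and 0.0486 for MLL1-KO2. Every knockout library lay far below both Parental libraries for each of these genes. The other genes among the 15 largest drops included the matrix protein gene MATN2 (log2 fold changes -5.67 and -5.49), the scavenger receptor gene SCARA3 (-5.58 and -5.48), the lipoprotein receptor gene LSR (-5.12 and -5.17), the serine incorporator gene SERINC2 (-4.97 and -5.06), and the stress-induced cytokine gene GDF15 (-4.89 and -5.10). Also among them were LOC100505817 (-8.37 and -6.17), the long noncoding RNA LINC00261 (-5.04 and -6.11), the actin-binding protein gene AIF1L (-6.09 and -5.00), and PNMAL1 (-5.86 and -4.16).

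**Figure D1:**
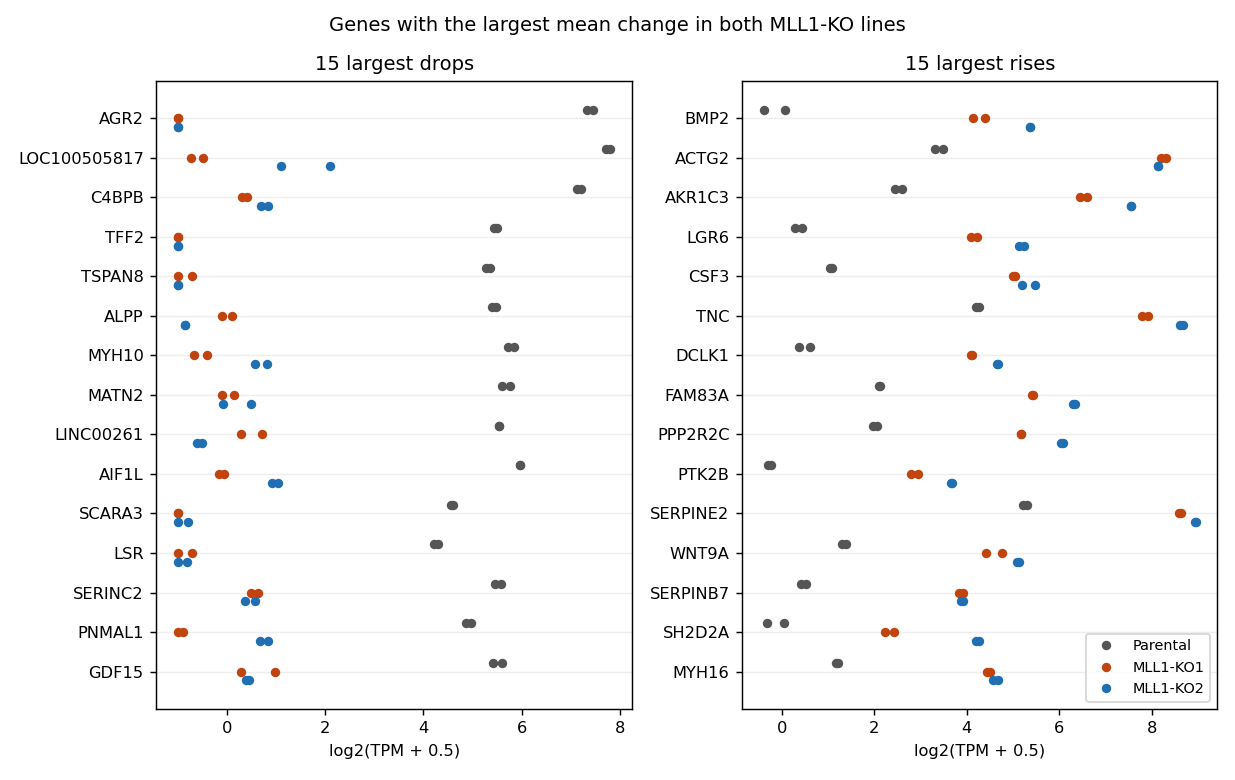
The 15 genes with the largest mean drop (left) and the 15 with the largest mean rise (right) among genes called in both MLL1-KO lines. Each point is 1 library, the horizontal axis is log2(TPM + 0.5), and for all 30 genes the 4 MLL1-KO libraries lie on one side of both Parental libraries.

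The largest rise was that of BMP2, a bone morphogenetic protein, at 0.265 and 0.544 TPM in Parental, 17.1 and 20.4 for MLL1-KO1, and 40.8 and 40.7 for MLL1-KO2. Parental cells held almost no BMP2 RNA, while all 4 knockout libraries held it at a moderate level, higher in MLL1-KO2 than in MLL1-KO1. TNC, the gene for the matrix protein tenascin-C, went from 18.8 and 17.8 TPM in Parental to 240.3 and 219 for MLL1-KO1 and 389.9 and 405 for MLL1-KO2. SERPINE2, which encodes the protease inhibitor nexin-1, went from 39.1 and 36.5 TPM in Parental to 381 and 394 for MLL1-KO1 and 493 and 486 for MLL1-KO2. AKR1C3, a steroid- and prostaglandin-reducing enzyme, went from 4.92 and 5.55 TPM in Parental to 87.0 and 95.7 for MLL1-KO1 and 187 and 186 for MLL1-KO2, although reads of the near-identical AKR1C genes may have been split between copies. CSF3, the gene for the neutrophil growth factor G-CSF, went from 1.57 and 1.61 TPM in Parental to 32.5 and 31.3 for MLL1-KO1 and 36.2 and 43.9 for MLL1-KO2. All of these rises left a wide gap between the Parental and the knockout libraries. Other genes among the 15 largest rises were the R-spondin receptor gene LGR6 (log2 fold changes 3.79 and 4.81), the kinase genes DCLK1 (3.60 and 4.16) and PTK2B (3.13 and 3.93), the WNT ligand gene WNT9A (3.24 and 3.76), the phosphatase subunit gene PPP2R2C (3.17 and 4.04), SERPINB7 (3.40 and 3.42), FAM83A (3.31 and 4.21), SH2D2A (2.45 and 4.36), and the myosin pseudogene MYH16 (3.27 and 3.42).

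Libraries of SAP30-KO and SIN3A/3B-DKO cells in the series, fitted together with these but not compared here, are given for the same genes only as ranges. C4BPB ranged from 76.7 to 98.8 TPM, MYH10 from 28.2 to 35.4, and LINC00261 from 28.7 to 38.8 in those 8 libraries. These were closer to Parental than to the MLL1-KO lines, but below both Parental libraries in all 8. SERINC2 (25.9 to 78.4 TPM), PNMAL1 (20.5 to 30.0), and GDF15 (11.2 to 58.2) reached or passed the lower Parental library. SCARA3 was listed at 0 in all 8, LOC100505817 was at most 0.42 TPM, and TFF2 was at most 0.365 TPM. AGR2 (13.3 to 34.2 TPM), TSPAN8 (0.318 to 1.75), ALPP (2.455 to 6.13), and LSR (0.683 to 9.54) were also below both Parental libraries in all 8. The same held for MATN2 (15.7 to 32.9 TPM) and AIF1L (15.1 to 47.6). Such drops are thus not particular to the MLL1-KO lines. Among the rises, BMP2 was at most 0.116 TPM and ACTG2 at most 3.94 TPM there. TNC (37.7 to 51.85 TPM), PPP2R2C (8.19 to 15.3), DCLK1 (2.51 to 6.24), and AKR1C3 (6.13 to 23.55) were above both Parental libraries in all 8. They were still below every MLL1-KO library.

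Trefoil factors are small secreted peptides that travel with mucins, and AGR2 is needed for mucin folding. TFF2 was at 43.1 and 45.0 TPM in Parental, TFF1 at 11.6 and 16.5, and TFF3 at 5.67 and 5.83, and all 3 genes were listed at 0 in the 4 MLL1-KO libraries. TFF2 was thus at least 84.0-fold lower in MLL1-KO1 and at least 72.4-fold lower in MLL1-KO2, and TFF1 at least 18.7-fold and 16.1-fold lower. No bound is given for TFF3, whose reads could not be recovered reliably and whose call is lost by voom on recovered reads. MUC1, a membrane mucin, was 6.36 and 4.82 TPM in Parental, 0.801 and 0.406 for MLL1-KO1, and 0.482 and 1.21 for MLL1-KO2. These 5 genes, out of 12 members of the list in the table, were the ones that passed the filter on low values, and all 5 were lower in both lines. Because AGR2 and the trefoil genes passed it only through lines other than the MLL1-KO lines, their number is a description and no evidence about the family. The 3 trefoil genes are neighbours on chromosome 21, and with the next genes tested, SLC37A1 and PDE9A, they formed a run of 5 neighbouring genes lower in both lines, with a median log2 fold change of -3.92, while the running median of the surrounding genes was -0.12 for MLL1-KO1 and -0.09 for MLL1-KO2. This run was noticed after the values were seen.

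Tight junctions and desmosomes seal epithelial cells and hold them together. Of 29 tested members of that list (40 in the list), 14 were lower in both lines and 2 were higher, or 48.3% and 6.9% against 11.4% and 5.0% of all genes, with a median log2 fold change of -0.89 against -0.06. The counts were the same under quantile normalization and after the running median of neighbouring genes was subtracted. Low members such as CLDN1 passed the filter on low values only through lines other than the MLL1-KO lines, which raises the share. Without that filter, 15 of 37 members were lower and 2 were higher, with a median log2 fold change of -0.54. CLDN4, a claudin, was 42.5 and 41.4 TPM in Parental, 1.68 and 0.956 for MLL1-KO1, and 1.54 and 1.91 for MLL1-KO2. CLDN1, another claudin, was 10.2 and 11 TPM in Parental, 0.462 and 0.180 for MLL1-KO1, and 0.257 and 0.242 for MLL1-KO2. For both claudins the Parental and knockout libraries were far apart, and the libraries of the MLL1-KO lines overlapped each other. JUP, the plakoglobin gene of desmosomes and adherens junctions, fell from 17.4 and 19.9 TPM in Parental to 1.82 and 1.35 for MLL1-KO1 and 1.98 and 2.26 for MLL1-KO2. DSP, which encodes the desmosomal linker desmoplakin, fell from 77.0 and 71.2 TPM in Parental to 22.1 and 21.8 for MLL1-KO1 and 15.01 and 16.2 for MLL1-KO2. The other members lower in both lines included CLDN7, CLDN23, OCLN (occludin), CGN and CGNL1 (cingulins), the polarity genes PARD6A and PARD6B, and the desmosomal genes DSC2 and PKP2, with mean log2 fold changes from -0.95 for CGN to -3.09 for PARD6B. The members higher in both lines were CXADR, a junctional virus receptor (1.37), and PKP3, a plakophilin (0.84), whose call was lost without MLL1-KO1 replicate 1. TJP1, which encodes the scaffold ZO-1, was not called (-0.26).

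Of 11 tested epithelial genes outside the junctions, 6 were lower in both lines (54.5%) and 2 were higher (18.2%), against 11.4% and 5.0% of all genes, and under quantile normalization 4 were lower and 2 were higher. The epithelial transcription factor gene ELF3 fell from 5.61 and 6.07 TPM in Parental to 0.113 and 0.0384 for MLL1-KO1 and 0.0909 and 0 for MLL1-KO2. E-cadherin (CDH1), already at 1.07 and 1.25 TPM in Parental, had at most 1 read in any MLL1-KO library. EPCAM and SPINT1 were lower by -1.29 and -2.44 on the log2 scale, while the P-cadherin gene CDH3 (1.10) and PROM2 (1.71) were higher. Of 11 tested mesenchymal genes, 4 were higher and 1 was lower. TNC, the urokinase gene PLAU (1.16), CD44 (0.90), and fibronectin (FN1, 0.68) were the higher ones and MMP2 (-1.72) the lower. The transcription factor gene SNAI2 was higher (1.15) and TCF4 was lower (-2.76), and ZEB1 was not called (0.03). Among 11 tested keratins, KRT8 and KRT19 were lower (-1.53 and -1.40), each with a larger drop in MLL1-KO2 (differences between the lines -0.90 and -1.10, adjusted p = 7.87e-09 and 5.75e-07 from limma), and KRT17 was higher (1.41). The call of CDH3 was lost without Parental replicate 2 or without MLL1-KO2 replicate 1 and with other added constants, and that of KRT19 when neighbouring genes were subtracted.

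**Figure D2:**
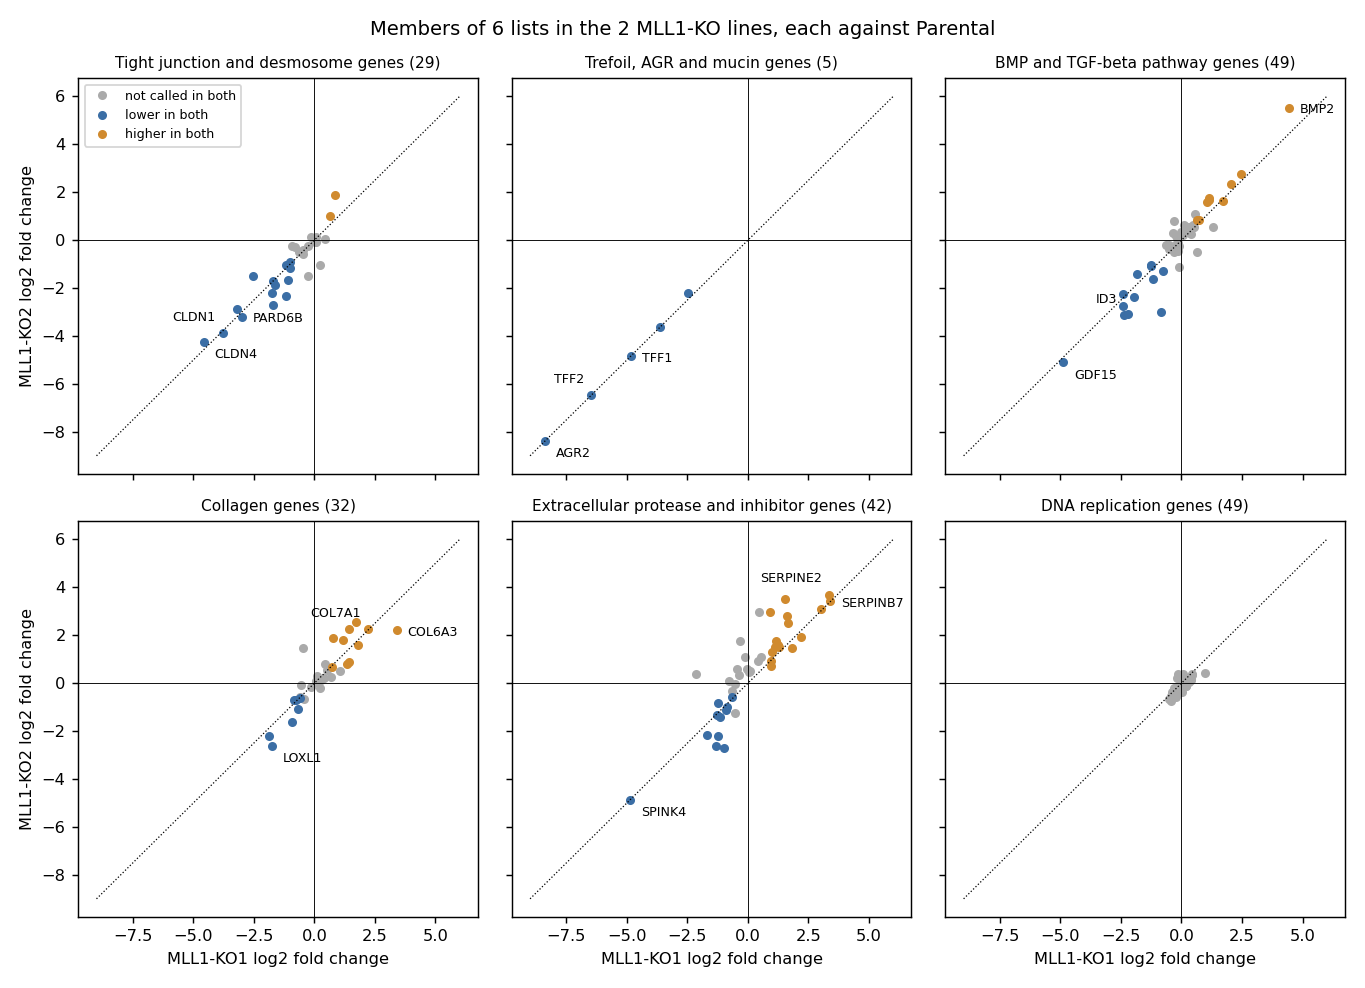
Log2 fold change against Parental in MLL1-KO1 (horizontal) and MLL1-KO2 (vertical) for the tested members of 6 lists, each point 1 gene, with equal folds on the dotted line. Junction genes lie mostly below 0 in both lines, collagen, protease, and BMP genes lie on both sides of 0, and the 49 DNA replication genes gather near 0. Both lines were compared with the same Parental libraries, and the positions of genes listed at 0, such as AGR2, depend on the added 0.5 TPM.

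The smooth muscle actin genes ACTG2 and ACTA2 moved in opposite directions. ACTG2, which encodes smooth muscle gamma-actin, was 10.7 and 9.44 TPM in Parental, 291 and 313 for MLL1-KO1, and 278 and 278 for MLL1-KO2, with a mean log2 fold change of 4.78 (SE 0.11, adjusted p = 5.4e-11). ACTA2, which encodes smooth muscle alpha-actin, was 7.06 and 6.63 TPM in Parental, 0.994 and 1.48 for MLL1-KO1, and 0.877 and 0.526 for MLL1-KO2, with a mean log2 fold change of -2.36 (SE 0.17, adjusted p = 5.03e-07). All knockout libraries were thus above Parental for the former gene and below it for the latter. The actin genes are near-identical in their coding sequence and reads may have been split between copies, so these levels are uncertain. The cytoplasmic actin genes ACTB and ACTG1, which are more abundant, were not called (-0.20 and 0.06). MYH10, which encodes nonmuscle myosin IIB, was almost lost, at 56.7 and 52.3 TPM in Parental, 0.253 and 0.128 for MLL1-KO1, and 0.989 and 1.25 for MLL1-KO2. Its relative MYH9, which encodes nonmuscle myosin IIA, stayed at 694 and 669 TPM in Parental, 709 and 675 for MLL1-KO1, and 687 and 724 for MLL1-KO2, and the groups overlapped. The actin-bundling protein gene TAGLN fell from 60.4 and 62.4 TPM in Parental to 10.6 and 9.68 for MLL1-KO1 and 30.1 and 28.5 for MLL1-KO2, and FHL1, a LIM protein gene, fell from 21.0 and 21.2 TPM in Parental to 2.58 and 3.28 for MLL1-KO1 and 4.67 and 6.06 for MLL1-KO2. SMTN (smoothelin) and PDLIM7 were higher in both lines (0.92 and 0.92). In all, 4 of 29 tested contractile genes were lower (13.8%) and 3 were higher (10.3%), against 11.4% and 5.0% of all genes, with a median log2 fold change of -0.03. TAGLN lies on distal chromosome 11.

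**Figure D3:**
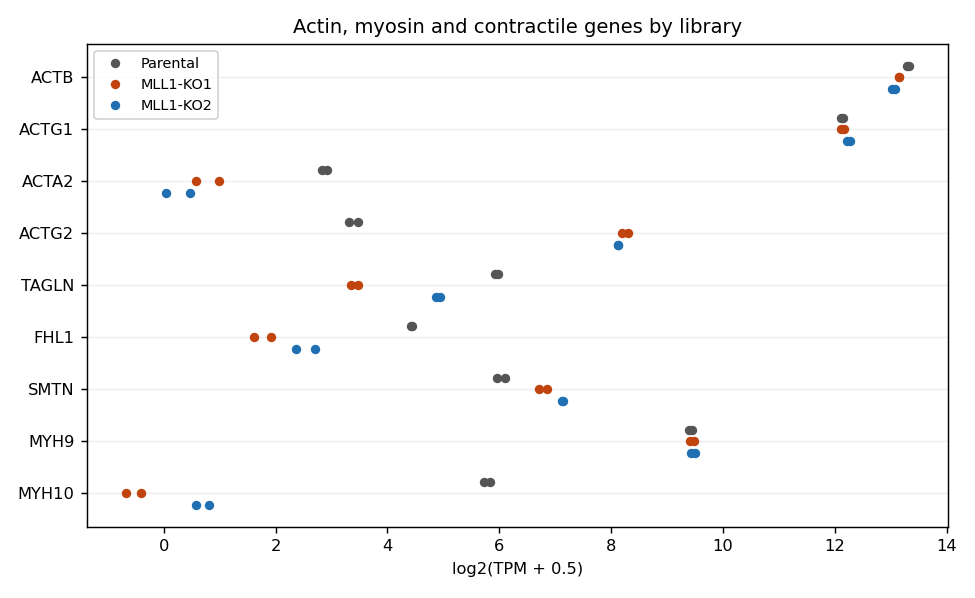
Actin, myosin, and contractile genes by library, as log2(TPM + 0.5), with each point 1 library. ACTG2 is above Parental in the 4 MLL1-KO libraries, ACTA2, TAGLN, FHL1, and MYH10 are below it, and the points of MYH9 lie together.

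Serum response factor binds a sequence known as the CArG box, which many contractile genes carry near their start. The strict form, a pair of C, then 6 letters of A or T, then a pair of G, was searched in the window from 250 bases before to 50 bases after the transcript start of each gene tested for which a start was found (12515 genes). Of the 29 contractile genes, 8 held a CArG box in the window (27.6%), against 1.07% of all 12515 windows, 1.36% for genes lower in both lines, and 1.79% for genes higher in both. These 8 did not move alike, since TAGLN and FHL1 were lower, ACTG2 was higher, and CNN2, FLNA, FHL2, MYL9, and SRF were not called in both lines. The windows of the smooth muscle actin genes are shown because these genes moved apart. Capitals mark each strict CArG box, searched on both strands. The windows are those of ACTG2 (chr2:74119885-74120184, plus strand) and ACTA2 (chr10:90712481-90712780, minus strand), both GRCh37.
ACTG2: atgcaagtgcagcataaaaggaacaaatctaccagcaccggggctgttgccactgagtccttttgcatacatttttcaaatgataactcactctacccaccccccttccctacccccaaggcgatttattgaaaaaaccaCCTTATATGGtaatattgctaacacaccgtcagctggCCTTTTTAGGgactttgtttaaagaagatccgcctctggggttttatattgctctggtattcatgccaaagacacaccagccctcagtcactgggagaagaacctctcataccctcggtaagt
ACTA2: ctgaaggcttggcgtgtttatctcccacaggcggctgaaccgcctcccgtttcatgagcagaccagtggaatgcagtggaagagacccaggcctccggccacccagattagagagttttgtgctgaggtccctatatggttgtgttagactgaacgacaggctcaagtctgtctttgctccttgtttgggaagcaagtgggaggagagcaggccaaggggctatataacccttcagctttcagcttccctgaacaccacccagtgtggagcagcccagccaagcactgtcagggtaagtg
ACTG2 held 2 matches, beginning 110 and 73 bases before the start, and the ACTA2 window held none in which every letter matched. With exactly 1 letter off, ACTA2 held 2, beginning 121 and 71 bases before the start, and ACTG2 held 1, beginning 239 bases before it. Such matches stood in 34.5% of the windows of contractile genes and in 12.8% of all windows, a search added after the strict matches were seen.

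YAP and TEAD proteins switch on genes that respond to cell shape and contact. Of 23 tested target genes, 9 were lower in both lines by limma or by voom (39.1%, against 11.4% of all genes). By either method 0 were higher, and 2 were higher in both at an unadjusted p under 0.05 with no fold minimum. Since only 5.0% of all genes were higher, 0 among 23 says little about the targets. ANKRD1, a muscle ankyrin repeat protein gene, fell from 964 and 962 TPM in Parental to 120.2 and 126 for MLL1-KO1 and 106 and 101 for MLL1-KO2. F3, the tissue factor gene, fell from 445 and 418 TPM in Parental to 127 and 126 for MLL1-KO1 and 107 and 101 for MLL1-KO2. CYR61, a matricellular protein gene, was 1077 and 1038 TPM in Parental, 498 and 506 for MLL1-KO1, and 538 and 522 for MLL1-KO2, and its close relative CTGF was not called (-0.33). Lower too were the transcription factor gene FOXF2 (-3.89), TGFB2 (-2.16), CRIM1 (-1.52), NUAK2 (-1.27), AMOTL2 (-0.80), and MYOF (-0.78). Among 14 regulators, TEAD2 was lower (-1.99) and the TEAD cofactor genes VGLL3 and VGLL4 were higher (0.88 and 0.93). YAP1 itself, on distal chromosome 11, was not called in both lines (-0.83 and -0.17 in the 2 lines). Its paralog WWTR1, which encodes TAZ, was not called either (0.34). With neighbouring genes subtracted, AMOTL2, MYOF, and VGLL4 lost their calls, and VGLL3 lost its call without Parental replicate 2. The letters GGAATG, the core of the TEAD motif, stood in the windows of 10 of the 23 targets (43.5%), against 10.2% of all windows.

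BMP and TGF-beta proteins signal through SMAD factors, and their genes went both ways. Of 49 tested members, 12 were lower and 9 were higher in both lines (24.5% and 18.4%, against 11.4% and 5.0% of all genes). Among the ligands, BMP2 was higher, while GDF15, TGFB2, the activin subunit gene INHBB (-1.92), and BMP8B (-2.32) were lower. SMAD7, an inhibitory SMAD induced by TGF-beta, rose from 2.71 and 4.02 TPM in Parental to 20.9 and 20.5 for MLL1-KO1 and 25.4 and 25.8 for MLL1-KO2. TGFBI, a matrix protein gene named for its response to TGF-beta, rose from 32.3 and 35.5 TPM in Parental to 142 and 137 for MLL1-KO1 and 170.1 and 173 for MLL1-KO2. The target gene PMEPA1 rose too (1.67), whereas ID3 and ID4, targets of BMP signals, fell (-2.76 and -2.58). SMAD3, a signal-transducing SMAD, was 72.2 and 70.7 TPM in Parental, 42.0 and 41.0 for MLL1-KO1, and 29.4 and 29.4 for MLL1-KO2. Of the secreted binding proteins, the BMP antagonist gene NOG (1.42) and the latent TGF-beta binding protein genes LTBP1, LTBP2, and LTBP4 (1.43, 1.32, and 0.79) were higher, and the activin antagonist gene FST (-2.65) and FSTL1 (-1.15) were lower. The receptor genes TGFBR3 and BMPR1B were lower (-1.63 and -1.40).

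Members of the WNT, NOTCH, and EGFR systems also divided, where 11.4% of all genes were lower and 5.0% higher in both lines. Among 36 tested WNT genes, 9 were lower and 7 were higher in both lines. The coreceptor gene LRP5 fell from 174 and 165 TPM in Parental to 42.4 and 41.1 for MLL1-KO1 and 14.6 and 14.5 for MLL1-KO2, and ROR1, WNT5A, DKK1, and DKK3 were lower (-1.75, -1.57, -1.39, and -1.64). The frizzled receptor gene FZD8 rose from 20.9 and 21.0 TPM in Parental to 80.6 and 79.7 for MLL1-KO1 and 98.8 and 102 for MLL1-KO2, together with the ligand gene WNT5B (1.80) and the feedback genes RNF43 (2.14) and AXIN2 (0.90). For NOTCH, 5 of 24 tested genes were lower (20.8%), among them the ligand gene JAG2 (-2.29) and the receptor gene NOTCH3 (-1.55). Another 2 were higher (8.33%), the receptor gene NOTCH1 (1.05) and the coactivator gene MAML3 (1.29). Of 22 tested genes around EGFR, 6 were lower and 2 were higher (27.3% and 9.09%). EREG, which encodes the EGFR ligand epiregulin, fell from 20.5 and 19.8 TPM in Parental to 0.848 and 0.565 for MLL1-KO1 and 0.670 and 0.541 for MLL1-KO2. NRG1, a ligand of ERBB3, and ERBB3 itself were also lower (-1.60 and -1.10), and the feedback genes SPRY4 and LRIG1 were higher (0.93 and 1.23). AP-1 genes, which many growth signals induce, were higher more often than lower, with 33.3% higher against 5.0% of all genes. Of 12 tested AP-1 genes, JUN, JUNB, FOS, and FOSB were higher in both lines (1.23, 1.06, 0.82, and 0.87) and 0 were lower by limma or voom, with 2 lower at an unadjusted p under 0.05. FOS lost its call without Parental replicate 1 or MLL1-KO2 replicate 1, and FOSB without Parental replicate 2 or MLL1-KO2 replicate 2. For NOTCH, 4 genes each way were called under quantile normalization.

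Genes of the extracellular matrix and of its turnover changed often, in both directions. Of 32 tested collagen genes and collagen enzymes, 10 were higher (31.2%) and 7 were lower (21.9%) in both lines, against 5.0% and 11.4% of all genes. COL6A3 rose from 7.37 and 7.51 TPM in Parental to 85.6 and 81.3 for MLL1-KO1 and 35.5 and 36.8 for MLL1-KO2, and COL7A1, the collagen of anchoring fibrils, rose from 9.74 and 10.8 TPM in Parental to 54.6 and 44.6 for MLL1-KO1 and 46.9 and 54.4 for MLL1-KO2. COL16A1, COL17A1, COL27A1, COL4A5, COL9A3, COL1A1, COL15A1, and COL6A1 were higher as well, with mean log2 fold changes from 0.71 for COL6A1 to 2.14 for COL16A1. The basement membrane genes COL4A1 and COL4A2, which are neighbours, were lower (-1.26 and -0.88), as were COL6A2, COL12A1, COL13A1, and the enzyme genes LOXL1 and PLOD2. With neighbouring genes subtracted, 2 of the list were lower and 12 were higher, and COL4A1, COL4A2, COL12A1, COL13A1, and PLOD2 were among those no longer called. Among laminins and integrins, LAMB3 and the integrin gene ITGB4, which belong to the same epithelial adhesion structure, the hemidesmosome, were higher (1.16 and 1.75). ITGA5, the fibronectin receptor subunit gene, was higher (1.25). The basement membrane proteoglycan perlecan gene HSPG2 fell from 31.1 and 25.2 TPM in Parental to 2.24 and 1.65 for MLL1-KO1 and 1.14 and 1.24 for MLL1-KO2, and ITGB3, ITGB2, ITGA2, and LAMA4 were lower (-1.93, -1.20, -1.05, and -1.50), the last of them not under quantile normalization.

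Of 42 tested extracellular protease and inhibitor genes, 16 were higher (38.1%) and 11 were lower (26.2%) in both lines, against 5.0% and 11.4% of all genes. MMP14, the membrane-bound collagenase gene, rose from 425 and 417 TPM in Parental to 940.3 and 939 for MLL1-KO1 and 1447 and 1448 for MLL1-KO2. The plasminogen activator gene PLAU and its receptor gene PLAUR rose (1.16 and 1.31), while PLAT, the other plasminogen activator gene, fell (-1.28). ADAM19 rose from 49.5 and 53.7 TPM in Parental to 239.9 and 239 for MLL1-KO1 and 192 and 200.4 for MLL1-KO2, and ADAM8, ADAMTS6, and ADAMTS7 rose by 1.40, 1.66, and 2.21 on the log2 scale. TIMP3, a metalloproteinase inhibitor gene, fell from 819 and 826 TPM in Parental to 393 and 427 for MLL1-KO1 and 127 and 124 for MLL1-KO2. The protease inhibitor gene SPINK4 was listed at 0 in all 4 MLL1-KO libraries after 16.2 and 12.4 TPM in Parental, at least 14.2-fold lower in MLL1-KO1 and 12.3-fold lower in MLL1-KO2. The cystatin genes CST1 and CST2 were higher (2.53 and 2.08), with reads that may be split between the near-identical copies. The collagenase gene MMP1 had log2 fold changes of -0.32 and 1.75, and the lines differed by 2.06 (adjusted p = 2.75e-07 from limma).

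Of 43 tested cytokines, chemokines, and their receptors, 14 were lower (32.6%) and 5 were higher (11.6%) in both lines, against 11.4% and 5.0% of all genes, so the split between lower and higher calls was close to that of all calls. Under quantile normalization 11 of them were lower and 7 were higher. IL18, an inflammasome cytokine gene, fell from 74.9 and 67.2 TPM in Parental to 5.88 and 3.69 for MLL1-KO1 and 4.38 and 4.25 for MLL1-KO2. CMKLR1, the chemerin receptor gene, fell from 11.9 and 13.5 TPM in Parental to 0.0874 and 0.0444 for MLL1-KO1 and 0 and 0 for MLL1-KO2. Lower also were the receptor genes OSMR, LIFR, and IL6ST, which serve cytokines of the IL-6 family (-1.14, -1.08, and -0.71), the death ligand gene TNFSF10 (-2.14), and CSF1 (-0.86). The neutrophil chemokine gene CXCL1 rose from 3.50 and 5.03 TPM in Parental to 19.9 and 19.9 for MLL1-KO1 and 14.4 and 13.9 for MLL1-KO2, as did CSF3, whereas IL6 and IL8 were not called (-0.79 and 0.30). CD40, a receptor of the TNF family, fell from 21.0 and 21.2 TPM in Parental to 0.228 and 0.308 for MLL1-KO1 and 0.548 and 0.345 for MLL1-KO2. Of 55 tested interferon-stimulated genes, 11 were lower (20%) and 1, IFI44, was higher (by 1.0) in both lines. OAS1 fell from 15.9 and 15.4 TPM in Parental to 2.77 and 2.50 for MLL1-KO1 and 0.817 and 0.770 for MLL1-KO2, and MX1, IFI27, IFITM1, and TRIM22 were lower by -1.95, -2.88, -2.41, and -2.39 on the log2 scale. With neighbouring genes subtracted, 8 of the list were lower and 4 were higher, and IFI44 lost its call without Parental replicate 2 or MLL1-KO1 replicate 2. For 27 tested antigen presentation genes, 7 were lower and 0 higher by limma, with 2 higher at an unadjusted p under 0.05 and 1 higher by voom, but under quantile normalization 3 were lower and 2 were higher. Of the lower ones, HLA-B and HLA-C were -0.79 and -0.79 on the log2 scale, with reads that similar HLA genes share.

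The APOBEC3 cytidine deaminase genes, a cluster on chromosome 22, were among the higher genes. APOBEC3G went from 3.34 and 3.81 TPM in Parental to 24.4 and 27.8 for MLL1-KO1 and 36.8 and 37.95 for MLL1-KO2, APOBEC3F went from 2.85 and 2.87 TPM in Parental to 20.5 and 21.3 for MLL1-KO1 and 23.2 and 24.8 for MLL1-KO2, and APOBEC3C went from 60.1 and 65.2 TPM in Parental to 168 and 175 for MLL1-KO1 and 238 and 232 for MLL1-KO2. APOBEC3D and the barely detected APOBEC3H were also higher (2.14 and 1.34), which made a run of 5 neighbouring genes higher in both lines with a median log2 fold change of 2.14. APOBEC3B, their neighbour, was not called and was at 55.2 and 55.2 TPM in Parental, 57.6 and 57.6 for MLL1-KO1, and 62.5 and 59.6 for MLL1-KO2. The members are alike in sequence and reads may be split between them, and the run was noticed after the values were seen. There were 15 runs of at least 4 neighbouring genes lower in both lines and 6 of genes higher in both. Others were IFITM2, IFITM1, IFITM3, and B4GALNT4 on chromosome 11 (lower, median -1.22), TRIM6-TRIM34, TRIM34, TRIM5, and TRIM22 on the same chromosome (lower, -1.28), and FERMT1, BMP2, HAO1, and TMX4 on chromosome 20 (higher, 2.43). The longest, of 7 entries, held STAT5B, STAT5A, STAT3, PTRF, and others on chromosome 17 (lower, -0.94), where the running median of neighbours was -0.45 and -0.35. STAT5B, STAT3, PTRF, IFITM3, TMX4, and APOBEC3H lost their calls when that median was subtracted.

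Metabolic lists differed in direction, where 11.4% of all genes were lower and 5.0% higher in both lines. Of 43 tested cholesterol and fatty acid synthesis genes, 13 were lower (30.2%) and 0 were higher in both lines by limma or voom, with 3 higher at an unadjusted p under 0.05. HMGCS1, an early enzyme of cholesterol synthesis, was 81.2 and 80.3 TPM in Parental, 53.1 and 53.5 for MLL1-KO1, and 32.8 and 33.2 for MLL1-KO2, and ACLY, which makes cytosolic acetyl-CoA, was 436 and 438 TPM in Parental, 265 and 268 for MLL1-KO1, and 229 and 228 for MLL1-KO2. ACACA, IDI1, MVD, SC5DL, and ELOVL6 were lower by -1.16, -0.67, -1.13, -1.49, and -0.99 on the log2 scale. After subtraction of neighbouring genes, 5 of the list were lower, and HMGCS1, ACLY, ACACA, IDI1, MVD, SC5DL, and the glycolytic gene PGK1 lost their calls. HMGCS1 also lost its call under quantile normalization. Of 42 tested glycolysis and hypoxia genes, 10 were higher (23.8%) and 5 were lower. NDRG1, a gene induced by hypoxia, rose from 125 and 128 TPM in Parental to 544 and 572 for MLL1-KO1 and 706 and 752 for MLL1-KO2, and VEGFA, the angiogenic factor gene, rose from 72.1 and 73.4 TPM in Parental to 217 and 221 for MLL1-KO1 and 235 and 248 for MLL1-KO2. PGK1, the glucose transporter gene SLC2A3, PFKFB3, and PFKFB4 rose (0.91, 1.43, 1.36, and 1.13), but HK2, ANGPTL4, and the hypoxia factor gene EPAS1 fell (-0.74, -1.90, and -1.57). GLUL, which encodes glutamine synthetase, fell from 50.5 and 49.2 TPM in Parental to 4.88 and 5.79 for MLL1-KO1 and 9.66 and 9.56 for MLL1-KO2, and was the only 1 of 43 tested amino acid synthesis and ATF4 target genes lower in both lines, with 3 higher.

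Core machinery of proliferation was rarely called, where 11.4% of all genes were lower and 5.0% higher in both lines. Of 49 tested DNA replication genes, 0 were called in either direction in both lines by limma or voom, with a median log2 fold change of -0.01, while 15 were lower and 8 higher at an unadjusted p under 0.05 with no fold minimum. Of 65 mitosis genes, 4 were lower (HMMR, ECT2, TOP2A, and ANLN, from -0.78 to -1.02) and 0 were higher by limma or voom, with 4 higher at an unadjusted p under 0.05. With neighbouring genes subtracted, 1 of them was lower. Among 30 cell cycle regulators, RB1, RBL2, E2F5, E2F8, and CDKN2C were lower and the CDK inhibitor genes CDKN1A and CDKN1C were higher. CDKN1A, which encodes p21, rose from 36.8 and 39.0 TPM in Parental to 90.9 and 88.9 for MLL1-KO1 and 154 and 152 for MLL1-KO2. Of the lower regulators, RB1, RBL2, E2F5, and E2F8 lost their calls when neighbouring genes were subtracted, and RB1 and E2F8 under quantile normalization. Oxidative phosphorylation subunit genes had 2 lower and 3 higher of 75, and Polycomb genes had 1 higher of 29, the PRC2 accessory gene JARID2 (0.76), and 0 lower by limma or voom. SIN3 and HDAC genes had 0 of 26 in either direction by limma or voom. At an unadjusted p under 0.05, 7 Polycomb genes were lower, 7 SIN3 and HDAC genes were lower, and 7 of the latter were higher. Over all genes, 30.1% were lower and 17.9% were higher in both lines at that unadjusted threshold.

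Among HOX genes and their cofactors, 31 were in the table and 17 passed the filter. Of these, 6 were lower and 1 was higher in both lines (35.3% and 5.88%, against 11.4% and 5.0% of all genes). Low members could pass only through the group where they were high, so this share says little about the family. Without the filter, 7 of 30 were lower and 1 was higher, with a median log2 fold change of -0.12. HOXB9 fell from 19.4 and 18.5 TPM in Parental to 6.86 and 7.24 for MLL1-KO1 and 2.73 and 3.66 for MLL1-KO2, and HOXD1 fell from 7.11 and 6.87 TPM in Parental to 2.48 and 2.77 for MLL1-KO1 and 2.02 and 1.83 for MLL1-KO2. HOXB8, HOXB3, and HOXA13, which were lower too, were at or below 1.34 TPM already in Parental cells. The cofactor gene PBX3 was higher (0.85), and MEIS1 was not called (-0.39). Under quantile normalization 3 of these genes were lower and 1 was higher, and HOXB8, HOXB3, and HOXA13 lost their calls. PBX3 lost its call without MLL1-KO1 replicate 2. The other lists are given by their counts of lower and higher members in both lines, to be read beside the same shares of all genes. Axon guidance genes had 11 lower, among them SEMA3F (-4.50), and 8 higher of 46. IGF and matricellular genes had 7 lower, among them IGFBP4 and EFEMP1 (-2.02 and -4.35), and 4 higher of 22. Proteoglycans had 7 lower, among them CSPG4 and SDC2 (-3.85 and -1.92), and 4 higher of 24. Angiogenic ligands and receptors had 5 lower and 6 higher of 33. Metallothionein and oxidative stress genes had 5 in each direction of 29, with MT1X higher (1.75). Lysosome and autophagy genes had 3 lower and 7 higher of 43, p53 targets had 5 and 4 of 27, S100 and annexin genes had 1 and 3 of 17, NF-kappaB genes had 4 and 1 of 35, and heat shock and unfolded protein response genes had 4 and 0 of 35 (0 by voom, 5 higher at an unadjusted p under 0.05).

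**Figure D4:**
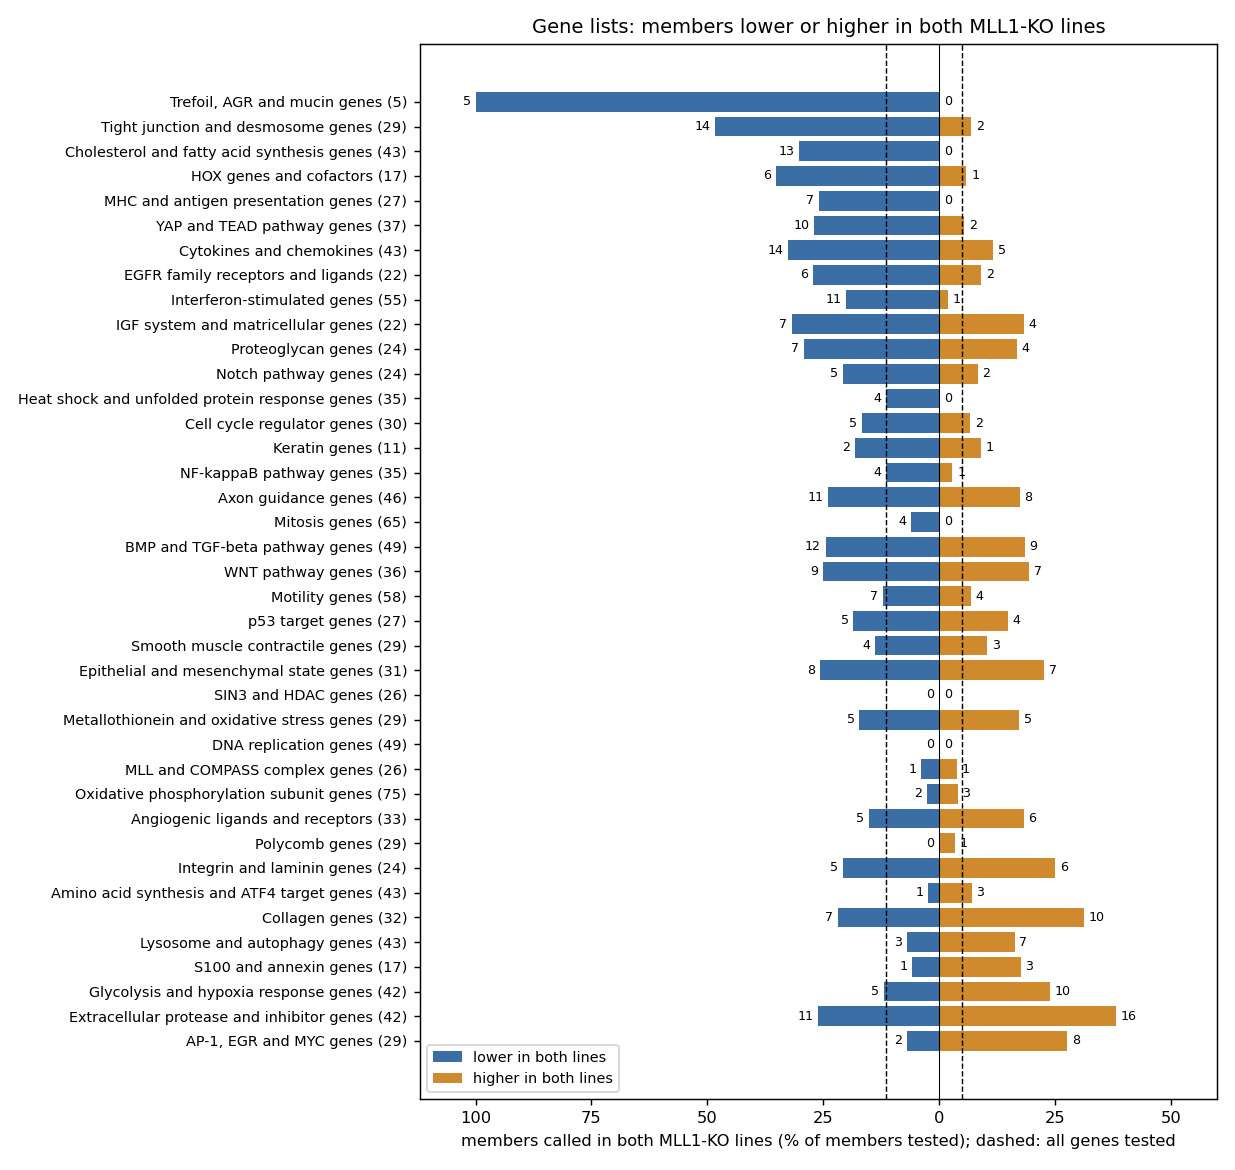
Share of the tested members of each of 39 lists that were lower (left) or higher (right) in both MLL1-KO lines, in percent, with the counts at the bar ends and the number tested in parentheses. Dashed lines mark all genes tested, 11.4% lower and 5.0% higher. Junction genes reach 48.3% lower, protease genes 38.1% higher, and DNA replication genes are at 0 on both sides. Bars of lists with few tested members, such as the 5 trefoil, AGR, and mucin genes, rest on genes that passed the filter on low values.

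Grouped by the stem of the gene symbol, 149 families had at least 10 tested genes, and 81 of them had no gene higher and 45 no gene lower in both lines. Of all genes tested, 11.4% were lower and 5.0% higher, so a small family without a call in a direction is only a description. The aldehyde dehydrogenases (ALDH) had the largest share of lower genes, 7 of 14, led by ALDH3A1, ALDH1L1, and ALDH5A1 (-3.07, -2.19, and -1.96). ALDH5A1, an enzyme of GABA breakdown, fell from 16.5 and 15.8 TPM in Parental to 2.82 and 2.96 for MLL1-KO1 and 4.71 and 5.06 for MLL1-KO2. They were followed by the PRSS proteases (4 of 10, at low levels), the intraflagellar transport genes (IFT, 5 of 13, led by IFT81, at -1.06, with 3 of the 5 calls lost under quantile normalization), the tetraspanins (6 of 16), the LRP receptors (4 of 11), and, with the same share, the matrix metalloproteinases (MMP, 4 lower and 2 higher of 11). The MMP split turned to 2 lower and 3 higher under quantile normalization, and to 3 lower and 4 higher with neighbouring genes subtracted. Collagens with a COL stem had the largest share of higher genes, 10 of 21. The TNFRSF receptors had 4 higher of 14, among them TNFRSF21 (1.04), the CYP enzymes had 3 of 16 but 5 lower, and the HSD enzymes had 2 of 11, the same share as the MMP genes. Under quantile normalization 3 CYP enzymes were lower and 4 were higher. Among KLF transcription factors, 3 of 15 were higher, and KLF13 rose from 7.10 and 7.601 TPM in Parental to 41.6 and 39.4 for MLL1-KO1 and 38.2 and 36.0 for MLL1-KO2. Cytosolic ribosomal proteins of the large subunit (RPL, 60 genes) had 0 lower and 2 higher, and the DDX helicases (36), Mediator subunits (MED, 30), and RNA polymerase subunits (POLR, 31) had 0 lower by limma or voom. At an unadjusted p under 0.05, 7 of the RPL, 10 of the DDX, 7 of the MED, and 5 of the POLR genes were lower.

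MLL1 and its relatives act at promoters rich in CpG, so the promoter windows of called genes were described by their CpG observed/expected ratio. The median ratio was 0.824 for genes lower in both lines, 0.763 for genes higher in both, and 0.864 for genes called in neither direction in both. A ratio of at least 0.6 was found for 78.7%, 68.8%, and 88.1% of them. Called genes were also less abundant, with a median Parental level of 14.2 TPM for lower and 7.82 TPM for higher genes against 25.5 TPM for all. Within the most abundant of 3 equal classes of genes, the ratio reached 0.6 in 88.9% of lower, 85.3% of higher, and 95.2% of the remaining genes, in the same order as among all genes. TGANTCA, the AP-1 motif, stood in 8.44% of the windows of higher genes, 4.84% of those of lower genes, and 4.17% of all. The letters TATAAA, searched on both strands, stood in 5.45% of all windows, in 7.29% of those of genes lower in both lines, and in 9.74% of those of genes higher in both. These shares are descriptions without a test, and a match is not a binding site.

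**Figure D5:**
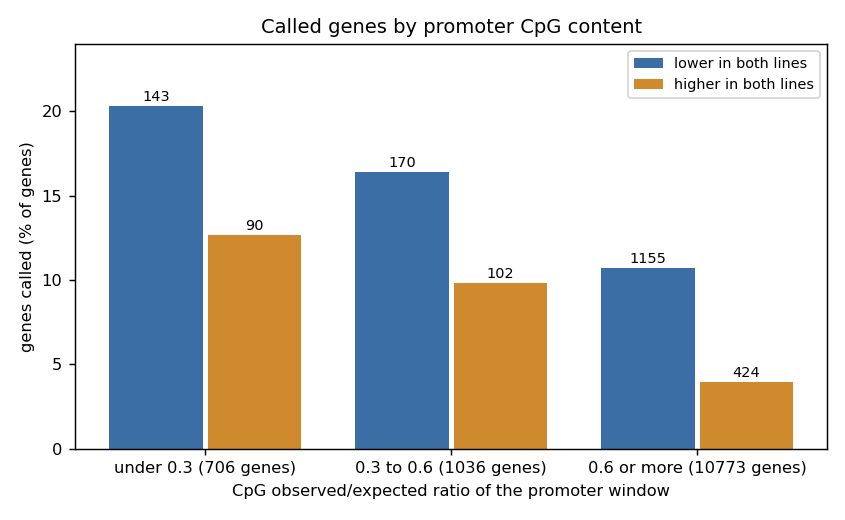
Share of genes lower or higher in both MLL1-KO lines, in percent, by the CpG observed/expected ratio of the promoter window, with the number of called genes above each bar. Both shares are largest below a ratio of 0.3 (20.3% and 12.7% of 706 genes) and smallest at 0.6 or more (10.7% and 3.94% of 10773 genes), and median Parental levels were 3.69 and 32.9 TPM in these classes.

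The lines also differed from each other. In the direct contrast of the lines, which takes no Parental mean but shares the fit's estimate of the spread, 1411 genes differed between them (10.4% of genes tested), of which 968 were higher and 443 lower in MLL1-KO2. Of the genes lower in both lines, 289 differed between the lines, and the drop was larger in MLL1-KO1 for 136 of them. Of the genes higher in both, 118 differed, and for 104 the rise was larger in MLL1-KO2. Opposite calls in the lines were made for 27 genes. KRT81, a hair keratin gene, was 15.2 and 16.2 TPM in Parental, 7.06 and 6.65 for MLL1-KO1, and 55.2 and 59.0 for MLL1-KO2. KDR, the VEGF receptor gene, was 3.01 and 3.18 TPM in Parental, 0.689 and 0.370 for MLL1-KO1, and 6.22 and 6.44 for MLL1-KO2. SLC12A7, a potassium-chloride cotransporter gene, was 1.26 and 1.40 TPM in Parental, 6.38 and 6.10 for MLL1-KO1, and 0.111 and 0.0262 for MLL1-KO2. Parental lay between the lines for each of these genes.

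Calls were unevenly spread over chromosomes. Of 243 tested genes on chromosome 13, 22.2% were lower in both lines, as were 17.2% of 768 on chromosome 17 and 16.5% of 558 on chromosome 16, against 6.31% of 428 on chromosome 14. On the X chromosome, 13% of 437 were higher, with a median log2 fold change of 0.22. Where the running median of 51 neighbouring genes was under -0.2 in both lines, 522 of 2143 genes were lower (24.4%) and 53 were higher. Where it was within 0.2 of 0 in both lines, 736 of 8264 were lower (8.91%) and 406 were higher (4.91%). Whether DNA copy number differed between the lines and Parental was not measured in these libraries. Within the latter regions, 10 of 19 tested junction genes were lower and 1 was higher, and 12 of 28 protease and inhibitor genes were higher and 5 lower.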

How the data were processed

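RNA from Parental, MLL1-KO1, and MLL1-KO2 MDA-MB-231 cells (2 libraries each, groups and replicate numbers from the labels) was analyzed within the table of all 14 libraries. The authors isolated RNA with an RNeasy kit, prepared KAPA mRNA libraries, and sequenced them on an Illumina NextSeq. FastQC 0.11.2, TopHat, featureCounts, and build hg19 are named in the submitters' processing notes, and the annotation and strand setting are not given in the sources used here. The deposited values, named RPKM by the authors, sum to 1000000 in every library and were treated as TPM. Low values rise in steps of 1 read, which gave whole reads for 100.0% of the 18519 genes above 0 (tolerance 0.02 reads), taken as the smallest numbers that keep the ratios, so that a gene read in few libraries, such as TFF3, may be under-counted. Another 28 gene names had turned into dates and were not matched to any list.

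Genes at 1 TPM or more in at least 2 of 14 libraries (13540) were fitted with limma 3.58.1 in R 4.3.3 on log2(TPM + 0.5), with a variance trend and 7 group means, which gave 7 residual and 3.58 prior degrees of freedom. The contrasts were each line minus Parental, the mean of both lines minus Parental, and MLL1-KO2 minus MLL1-KO1. Each had Benjamini-Hochberg adjustment over all genes. Calls used a 1.5-fold minimum, and calls in both lines used the contrast of each line. Lower and higher counts of lists were set beside those of all genes, with no test of lists. The script was tested on simulated data. No 2 libraries agreed within sampling noise, with chi-square per degree of freedom from 1.696 to 2.198 between the libraries of a group. Bounds use 3 reads per library as the floor of a value of 0 and cover counting error only.

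Gene positions and promoter windows (250 bases before to 50 after the canonical transcript start) came from GENCODE and GRCh37, which is hg19, for 12988 and 12515 of the genes tested. Fits were repeated with other pseudocounts, filters, scalings, and fold minimums, with only 6 libraries, with a replicate block, without each library, with voom on recovered reads, and after subtraction of a running median over 51 neighbouring genes. The genes named are KMT2A, the 15 largest mean changes in each direction, up to 6 called members of each list in each direction and its first 3 entries, the leading symbol families, and the 5 largest opposite calls. Some further members are named to complete a group and were chosen after their values were seen. The comparison and the lists were chosen with earlier results of these data known. Some genes and sequences are not reported here.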

Additional observations from a re-analysis of the deposited data

Results flagged for a closer look

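The following genes, all among those named by rule, differed between MLL1-KO1 and MLL1-KO2 in a direct contrast of the lines by limma, and are given as the MLL1-KO2 minus MLL1-KO1 difference on the log2 scale. Opposite calls against Parental were made for CST7 (3.75, adjusted p = 9.65e-06), PLD5 (3.74, 2.91e-07), SLC12A7 (-3.57, 3.09e-08), KRT81 (2.97, 6.2e-10), and KDR (2.75, 3.29e-07). CST7, a cystatin gene, was 2.09 and 0.768 TPM in Parental, 0.396 and 0.134 for MLL1-KO1, and 9.21 and 10.0 for MLL1-KO2. PLD5 was 0.525 and 0.207 TPM in Parental, 0 and 0 for MLL1-KO1, and 6.13 and 6.19 for MLL1-KO2, so it was called lower in MLL1-KO1 from a level below 1 TPM.

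KMT2A, listed as MLL, was higher in MLL1-KO2 than in MLL1-KO1 by 0.67 (adjusted p = 0.00363). Among the genes with the largest drops in both lines, RNA was higher in MLL1-KO2 for LOC100505817 (2.21), PNMAL1 (1.70), MYH10 (1.23), and AIF1L (1.09), and lower for LINC00261 (-1.07) and ALPP (-0.85). For those with the largest rises, RNA was higher in MLL1-KO2 for SH2D2A (1.90), BMP2 (1.10), AKR1C3 (1.03), LGR6 (1.02), FAM83A (0.90), PPP2R2C (0.88), PTK2B (0.80), and TNC (0.79). Adjusted p-values ranged from 8.16e-08 for PNMAL1 to 0.00288 for FAM83A among these 14 genes, and in each the libraries of MLL1-KO1 and MLL1-KO2 did not overlap. Groups of 2 libraries are too small to look for a library that stands apart.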

How the results depend on the processing

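The number of calls shared by both lines changed by over 1.5 times with the fold minimum, quantile normalization, and the choice of regions, and not with the other settings run. With at least 2-fold changes, 757 genes were lower and 286 higher in both lines and 428 differed between them. With no fold minimum, the counts were 3869, 2263, and 5694. Under quantile normalization 1064 genes were higher in both and 1170 lower, and the lists with more lower than higher members fell from 24 to 16 of 39. Among genes with a neighbour median within 0.2 of 0 in both lines, an alternative chosen after seeing the data, 736 were lower and 406 higher, as fewer genes were then counted. Without each library in turn, 1477 to 1565 genes were lower, 642 to 687 higher, and 1319 to 1411 differing, 21 to 24 lists had more lower members, and KMT2A was at -1.41 to -1.20. With the replicate number as a block, 1538 genes were lower, 676 higher, and 1415 differing, and the KMT2A value was -1.31. The labels give the samples only a number in common. The correlations of replicate deviations between groups were 0.047, -0.004, and 0.024, and whether equal numbers mark a shared batch was not tested. Of 400 named genes other than KMT2A, 327 were called in both lines. Of these 327, 246 were called in the same direction under every alternative run for single genes, and 0 changed sign. The other fold minimums and the choice of regions were not applied to single genes. Subtraction of neighbouring genes ended the most named calls, 46, among 395 named genes with a position, called or not. Depth limits the lowest genes, since 131 genes lower in both lines had at most 3 reads in each MLL1-KO library.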
